A study of Mus musculus with 23 samples.

Results

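The interferon response genes described here are 30 genes chosen by name for their known induction by interferon. Each was represented by the probe set paired with that gene alone that had the highest mean over 23 liver arrays. Of the 30, 28 could be measured in this way, among 18193 genes represented by the same rule. Isg15 and Ifi44 had no such probe set in the annotation used and were not analysed here. The livers came from male hemizygous FVB/N-SULT1A1/2 mice, a line that carries human sulfotransferase genes. All 4 groups share this background, and no mice without the transgenes are among the samples analysed here. Treated mice received 26 mg/kg of 1-MIM-OH (1-methoxy-3-indolylmethyl alcohol, a breakdown product of a glucosinolate) by mouth, 3 times a week, whereas control mice were given only glyceryl trioctanoate, the vehicle. Livers were taken 24 h after the last dose, following 10 treatments over 21 d or 40 treatments over 90 d. The labels give 5 weeks as the age of every animal, at both durations. After 21 d there were 6 vehicle animals and 5 treated ones, after 90 d there were 6 of each, and every animal had 1 array. A further treated animal of the 21 d group was left out by the submitters because of hybridisation artefacts. Values are deposited log2 signals of Affymetrix arrays, and the spread is that between animals.

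Interferons are cytokines that cells release on sensing viral nucleic acids or other danger signals. Type I and type III interferons signal through JAK kinases to a complex that contains STAT2 and IRF9 and binds interferon-stimulated response elements (ISRE), whereas interferon gamma acts mainly through gamma-activated sites (GAS). Their targets include nucleic acid sensors, antiviral effectors, immunoproteasome subunits and peptide transporters for antigen presentation, and chemokines. In liver both hepatocytes and Kupffer cells, the resident macrophages, respond to interferons.

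The arrays were comparable in level, with array medians between 5.53 and 5.61, but differed in a sign of RNA quality and in a few single livers. The Gapdh control signal from the 3' end exceeded that from the 5' end by 1.00 ± 0.51 (SD, n = 5) in treated livers at 21 d and by 0.33 ± 0.13 (n = 6) in vehicle livers. This difference of 0.67 had a two-sided exact permutation p of 0.0216, while at 90 d the difference was 0.03 (exact permutation p = 0.909). Hepatocyte markers had a mean log2 level between 14.17 and 14.40 in all 23 livers. In each group 1 liver had the highest mean over the 28 interferon response genes: vehicle replicate 1 (7.99) and treated replicate 2 (7.85) at 21 d, and vehicle replicate 2 (7.45) and treated replicate 3 (8.10) at 90 d. For many of the genes described by animal, the difference is also given without 1 of these livers.

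None of the 28 interferon response genes passed an adjusted p under 0.05 (limma, Benjamini-Hochberg over 45037 probe sets) in treated against vehicle livers, at 21 d or at 90 d. Of all represented genes 1.17% passed at 21 d and 0.748% at 90 d. With an unadjusted p under 0.05, 4 of 28 were found at 21 d (14.3%, against 16.6% of all genes) and 4 of 28 at 90 d (14.3%, against 12.1%). The 4 at 21 d were Dhx58, Oasl1 and Ifi35, higher in treated livers as were 8.44% of all genes, and Rsad2, lower as were 8.2% of all genes. The 4 at 90 d were Irf7, Ifih1, Oasl1 and Bst2, all higher in treated livers as were 7.83% of all genes. At 21 d the fold change was above 0 for 11 of 28 genes (39.3%, against 43.7% of all represented genes), with a median of -0.07 on the log2 scale beside -0.02 over all genes. At 90 d it was above 0 for 25 of 28 (89.3%, against 57.2%), with a median of 0.24 beside 0.02 over all genes. Kupffer cell markers and acute phase genes lay mostly below 0 at 21 d and above 0 at 90 d too. Of 15 Kupffer cell and macrophage markers, 2 had a fold change above 0 at 21 d (median -0.38) and 14 at 90 d (median 0.35), and of 12 acute phase genes 2 (median -0.13) and 10 (median 0.25). The part of these in the interferon values was not tested. The difference between the treatment effects at 90 d and 21 d passed for none of the 28 and for 0% of all represented genes, and at an unadjusted p under 0.05 for 1 gene, Bst2 (3.57%, against 8.64% of all represented genes). With the Gapdh difference as a covariate the median at 21 d was 0.31 instead of -0.07. At 21 d this covariate itself differed between treated and vehicle livers (1.00 against 0.33). Among treated livers of 21 d it was lowest (0.14) in replicate 2, the liver with the highest interferon response gene mean (7.85). With the mean of the acute phase genes as a covariate the median at 90 d was 0.03 instead of 0.24. Without treated replicate 3 of 90 d it was 0.06, and without vehicle replicate 1 of 21 d the median at 21 d was 0.10.

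**Figure D1:**
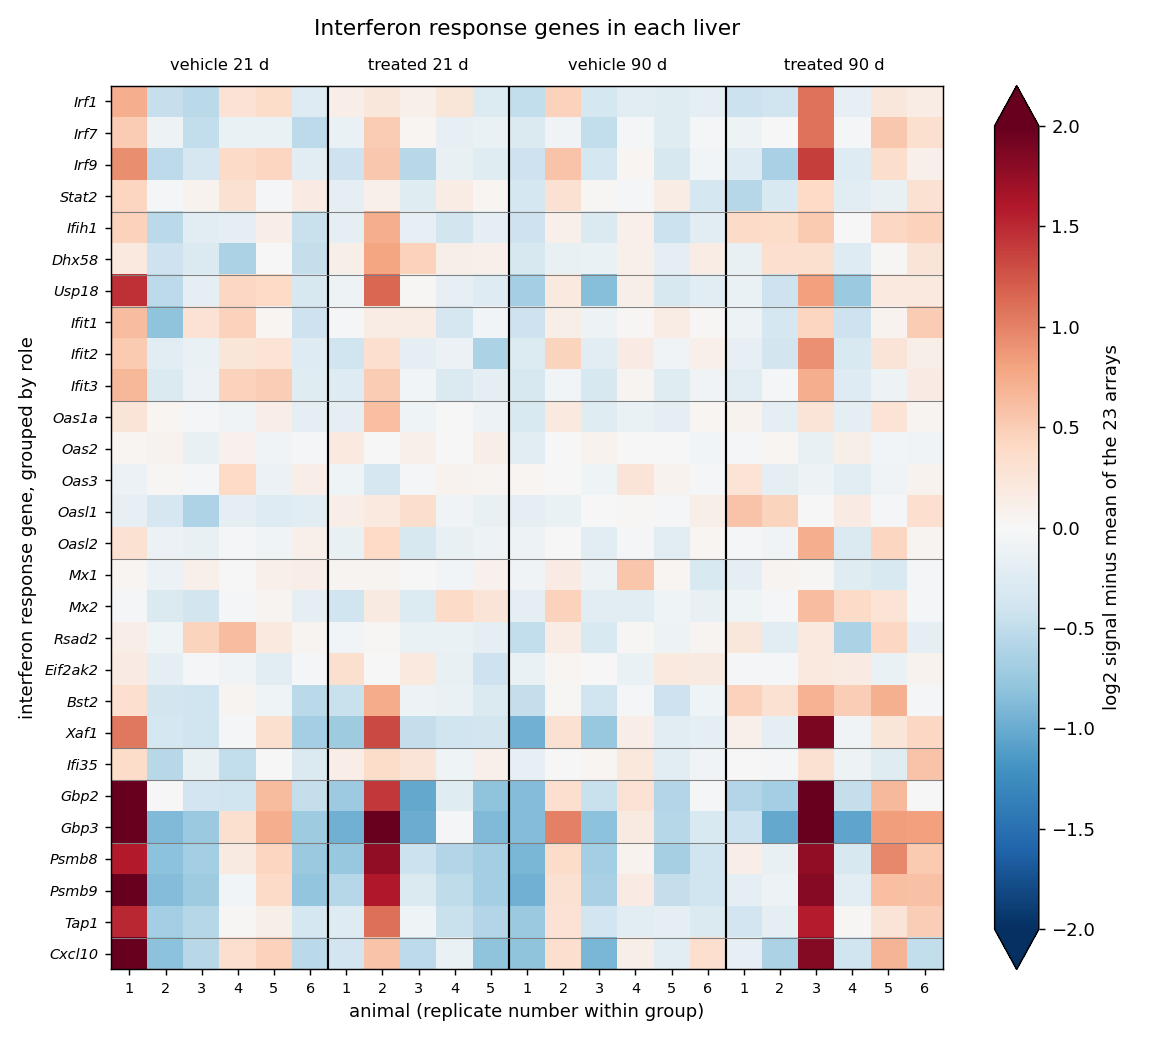
Deviation of each of the 28 interferon response genes (rows) from its mean over all 23 livers, on the log2 scale, in every liver (columns, by group and replicate). Single columns stand out in warm colours, vehicle replicate 1 and treated replicate 2 at 21 d and treated replicate 3 at 90 d, rather than whole groups.

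**Figure D2:**
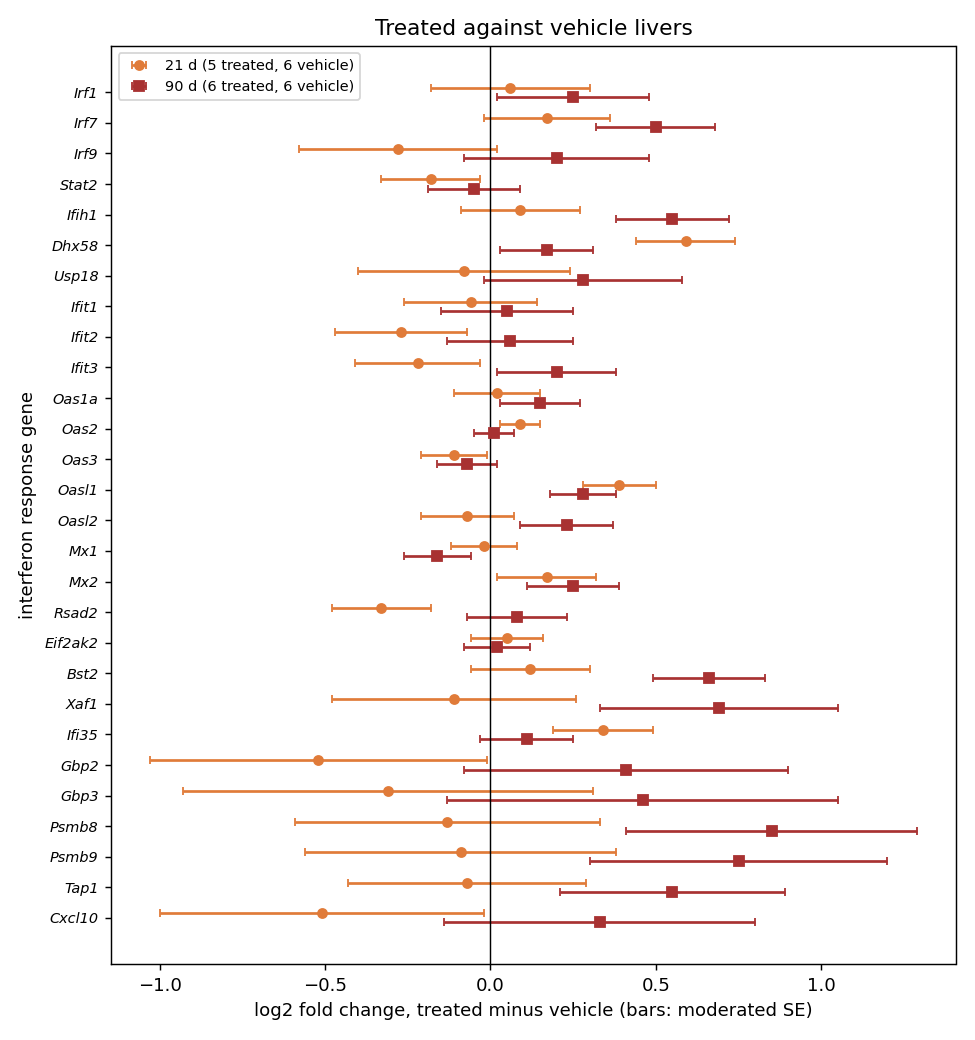
Difference between treated and vehicle livers for each of the 28 interferon response genes on the log2 scale, at 21 d (5 treated, 6 vehicle) and 90 d (6 treated, 6 vehicle), with bars for the moderated standard error. The bars are widest for Gbp2, Gbp3, Psmb8, Psmb9 and Cxcl10, and 25 of 28 points lie above 0 at 90 d against 11 of 28 at 21 d.

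Many of these genes varied together between animals, as described further on. The promoters of the listed genes were also searched for the elements that interferon-activated factors bind. RefSeq windows (GRCm38.p6) of 250 bases before to 50 bases after the start were found for 25 of the 30 listed genes. An ISRE core, the bases GAAA, any 2 bases and GAAA again, on either strand, was present for 13 of the 25 (52%), against 3.99% of 27025 genes in the same table, where a gene counts if any of its windows holds a match. A GAS element, TTCNNNGAA, which reads the same on both strands, was present for 7 of the 25 (28%), against 9.55% of all genes. The genes were chosen as induced by interferon, so high shares can follow from that choice and are no separate support. Of 105 other listed genes of interferon production, signalling and response, 83 had a window. An ISRE core was present for 25 of these (30.1%) and a GAS element for 16 (19.3%). Among the 20 measured genes with the wider spread between animals, 17 had a window and 9 of these held an ISRE core (52.9%), beside 3 of 6 (50%) among the other 8. The 250 bases before the start are shown 5' to 3' for 5 genes that varied widely or had the largest changes at 90 d, and for Oasl1, the gene whose groups separated at 21 d. Capitals mark matches to either element.
Gbp2, chr3:142620413-142620662, plus strand: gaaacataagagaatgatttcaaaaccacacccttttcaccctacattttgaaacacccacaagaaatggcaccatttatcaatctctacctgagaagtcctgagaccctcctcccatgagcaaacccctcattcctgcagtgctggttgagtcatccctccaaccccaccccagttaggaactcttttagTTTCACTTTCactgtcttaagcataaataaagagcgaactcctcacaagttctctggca
Cxcl10, chr5:92348890-92349139, minus strand: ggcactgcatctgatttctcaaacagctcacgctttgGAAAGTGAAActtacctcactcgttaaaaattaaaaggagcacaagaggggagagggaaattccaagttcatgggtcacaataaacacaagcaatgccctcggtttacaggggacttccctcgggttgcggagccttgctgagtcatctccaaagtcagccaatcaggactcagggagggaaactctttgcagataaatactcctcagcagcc
Bst2, chr8:71537473-71537722, minus strand: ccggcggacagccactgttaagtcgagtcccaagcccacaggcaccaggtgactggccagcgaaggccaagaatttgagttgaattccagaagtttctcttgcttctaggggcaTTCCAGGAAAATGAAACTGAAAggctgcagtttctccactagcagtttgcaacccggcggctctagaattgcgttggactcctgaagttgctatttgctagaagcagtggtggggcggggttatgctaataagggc
Psmb8, chr17:34197945-34198194, plus strand: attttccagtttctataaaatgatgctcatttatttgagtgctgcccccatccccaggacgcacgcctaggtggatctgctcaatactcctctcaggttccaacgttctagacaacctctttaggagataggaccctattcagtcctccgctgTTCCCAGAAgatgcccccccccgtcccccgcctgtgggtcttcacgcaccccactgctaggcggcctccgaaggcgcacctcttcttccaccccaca
Tap1, chr17:34187306-34187555, plus strand: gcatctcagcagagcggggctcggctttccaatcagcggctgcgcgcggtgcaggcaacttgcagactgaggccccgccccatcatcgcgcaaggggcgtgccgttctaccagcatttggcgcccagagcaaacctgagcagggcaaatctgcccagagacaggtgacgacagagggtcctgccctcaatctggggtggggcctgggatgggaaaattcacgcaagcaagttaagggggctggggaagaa
Oasl1, chr5:114922990-114923239, plus strand: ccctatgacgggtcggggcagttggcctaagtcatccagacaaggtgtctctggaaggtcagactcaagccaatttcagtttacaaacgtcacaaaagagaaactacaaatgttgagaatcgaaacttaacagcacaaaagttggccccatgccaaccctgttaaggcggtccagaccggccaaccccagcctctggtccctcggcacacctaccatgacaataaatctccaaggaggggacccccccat

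In Bst2 the GAS match overlaps an ISRE match, and that ISRE match overlaps another, so that 22 bases run together in capitals. Tap1 and Psmb9 start next to each other on opposite strands, and 225 of the 250 bases shown for Tap1 are also the bases before the start of Psmb9. No match lies in the window of Tap1, Psmb9 or Oasl1, which says only that these letters are not in these windows. The matches are descriptions of the sequence, since binding was not measured.

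Among the transcription factors, Irf7, the factor that amplifies type I interferon production, had the largest difference at 90 d. At 21 d its log2 signal in vehicle livers ran from 6.03 over a median of 6.42 to 7.06, and in treated livers it was 6.42, 7.06, 6.59, 6.38 and 6.41. After 90 d it ran from 6.05 over 6.39 to 6.53 in vehicle livers and from 6.45 over 6.72 to 7.64 in treated livers. The 90 d groups overlapped only in a narrow band, and treated replicate 3 was the highest. The difference at 90 d was 0.50 ± 0.18 (SE), with an adjusted p of 0.295 (limma), and at 21 d it was 0.17 ± 0.19. With single arrays left out in turn the differences ran from 0.34 to 0.58 at 90 d and from 0.04 to 0.30 at 21 d. The lowest at 90 d was without treated replicate 3.

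Irf9, a DNA-binding part of the complex on ISRE elements, had wide ranges in every group. It ran from 6.75 over 7.36 to 8.21 in vehicle and was 6.86, 7.82, 6.72, 7.12 and 7.03 in treated livers at 21 d. The 90 d values ran from 6.86 over 7.09 to 7.85 in vehicle and from 6.63 over 7.20 to 8.66 in treated livers. The highest value of each group was that of the 4 livers named above, and the groups overlapped widely at both durations. The differences were -0.28 ± 0.30 (SE) at 21 d and 0.20 ± 0.28 at 90 d, with adjusted p of 0.718 and 0.861 (limma). Without vehicle replicate 1 and without treated replicate 2 the 21 d difference was -0.11 and -0.46, and without treated replicate 3 the 90 d difference was -0.06.

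Stat2, a partner of IRF9 in that complex, varied less. Its range was 6.27 to 6.73 (median 6.42) in vehicle livers at 21 d, where the treated livers had 6.12, 6.40, 6.06, 6.46 and 6.35. At 90 d it ran from 5.95 over 6.30 to 6.61 in vehicle and from 5.74 over 6.12 to 6.71 in treated livers. The differences of -0.18 ± 0.15 (SE) and -0.05 ± 0.14 lay within the spread between animals, and the groups overlapped at both durations. Irf1, a factor induced by interferon gamma, differed by 0.06 ± 0.24 at 21 d and 0.25 ± 0.23 at 90 d, where vehicle replicate 2 (10.14) and treated replicate 3 (10.76) were the highest of their groups.

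Of the cytoplasmic RNA sensors, Dhx58 (LGP2) was highest after 21 d of treatment. Vehicle livers at 21 d ran from 5.44 over 5.72 to 6.27 and treated livers had 6.20, 6.87, 6.54, 6.20 and 6.17. At 90 d the range was 5.76 to 6.23 (median 5.94) in vehicle and 5.82 to 6.41 (median 6.22) in treated livers. All 5 treated livers at 21 d lay above the second highest vehicle liver (6.09), and only vehicle replicate 1 reached into their range. The difference at 21 d was 0.59 ± 0.15 (SE), a 1.5-fold higher level, with an adjusted p of 0.0564 (limma). Without vehicle replicate 1 of 21 d it was 0.68, with an adjusted p of 0.0297. Of 34 alternatives 5 passed for Dhx58 at 21 d, with adjusted p (limma) from 0.0187 to 0.371 over all 34. The other 2 Dhx58 probe sets gave -0.09 and -0.17 at 21 d, so the probe sets of this gene disagree in sign, and on the mean of the 3 the difference was 0.11. The sensor Ifih1 (MDA5) had a treated mean of 9.38 ± 0.18 (SD, n = 6) and a vehicle mean of 8.83 ± 0.24 (n = 6) at 90 d, a difference of 0.55 ± 0.17 (SE) with an adjusted p of 0.187 (limma). At 21 d the Ifih1 difference was 0.09 ± 0.18, and treated replicate 2 (9.75) stood above the other treated livers (8.65 to 8.86).

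Usp18 removes ISG15 from proteins and dampens signalling at the type I receptor. At 21 d it ran from 5.82 over 6.45 to 7.81 in vehicle livers and was 6.24, 7.49, 6.37, 6.18 and 6.09 in treated livers. After 90 d it ran from 5.50 over 6.08 to 6.54 in vehicle and from 5.60 over 6.38 to 7.16 in treated livers. Vehicle replicate 1 and treated replicate 2 at 21 d each stood more than 1 log2 unit above the next liver of their group, and the groups overlapped at both durations. The differences were -0.08 ± 0.32 (SE) and 0.28 ± 0.30. At 21 d the difference was 0.17 without vehicle replicate 1 and -0.33 without treated replicate 2, and at 90 d it was 0.11 without treated replicate 3.

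The IFIT proteins, which bind viral RNA and block its translation, gave small differences. Ifit1, Ifit2 and Ifit3 differed by -0.06 ± 0.20 (SE), -0.27 ± 0.20 and -0.22 ± 0.19 at 21 d, and by 0.05 ± 0.20, 0.06 ± 0.19 and 0.20 ± 0.18 at 90 d. Ifit2 and Ifit3 were highest in the same 3 livers as Irf9, vehicle replicate 1 and treated replicate 2 at 21 d and treated replicate 3 at 90 d. The mean over all arrays was 5.14 for Ifit2, below the array medians, and 5.69 for Ifit1, close to them, so a low signal may limit their differences.

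The oligoadenylate synthetase family, whose active members make the second messenger that switches on RNase L, held some of the steadiest genes of the set. Oasl1, an inactive relative that restrains Irf7 translation, had vehicle values from 6.16 over 6.54 to 6.60 at 21 d, and treated values of 6.91, 6.97, 7.12, 6.70 and 6.62. At 90 d its values ran from 6.57 over 6.77 to 6.88 in vehicle and from 6.74 over 7.02 to 7.34 in treated livers. The 21 d groups did not overlap, with 0.02 between the highest vehicle and the lowest treated liver, and the 90 d groups did. Oasl1 was the only 1 of the 28 genes whose treated and vehicle livers did not overlap at 21 d, and none was without overlap at 90 d. Of all represented genes 2.81% did not overlap at 21 d (1.53% with treated livers higher) and 1.35% at 90 d (0.967% with treated livers higher). The Oasl1 differences were 0.39 ± 0.11 (SE) at 21 d and 0.28 ± 0.10 at 90 d, with adjusted p of 0.0775 and 0.303 (limma).

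Oas2 had the smallest residual spread of the 28 genes, with a residual SD of 0.09 on the log2 scale, and differences of 0.09 ± 0.06 (SE) at 21 d and 0.01 ± 0.06 at 90 d. The 95% interval for Oas2 at 90 d ran from -0.12 to 0.14. Oas1a differed by 0.02 ± 0.13 and 0.15 ± 0.12, and Oas3 by -0.11 ± 0.10 and -0.07 ± 0.09. Oasl2, with a mean of 4.11 below the array medians, differed by -0.07 ± 0.14 and 0.23 ± 0.14. Genes of this family and of the IFIT and guanylate-binding families have close relatives in the genome, and whether their probes bind transcripts of these was not tested.

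Bst2 (tetherin), which holds budding virus particles at the cell surface, came closest to a call at 90 d. At 21 d it ran from 10.39 over 10.70 to 11.25 in vehicle livers and was 10.48, 11.66, 10.82, 10.79 and 10.64 in treated livers. The 90 d values ran from 10.45 over 10.68 to 10.94 in vehicle and from 10.88 over 11.39 to 11.63 in treated livers. At 90 d 5 of 6 treated livers lay above every vehicle liver, while at 21 d 1 of 5 did, treated replicate 2. The difference at 90 d was 0.66 ± 0.17 (SE), a 1.58-fold higher level, with a 95% interval of 0.31 to 1.02 and an adjusted p of 0.0928 (limma). At 21 d it was 0.12 ± 0.18, and -0.07 without treated replicate 2. Of 34 alternatives 6 passed for Bst2 at 90 d, with adjusted p from 0.00207 to 0.216 over all 34, and the difference stayed between 0.53 and 0.76. In a fit without treated replicate 2 of 21 d, which enters the shared estimate of the spread, the 90 d difference was again 0.66, with an adjusted p of 0.0197. Without treated replicate 6 of 90 d the adjusted p was 0.0347, and with the Gapdh difference as a covariate it was 0.00207 with a difference of 0.69, while it was 0.216 without treated replicate 5 of 90 d. Bst2 also marks plasmacytoid dendritic cells. The mean of 6 other dendritic cell markers ran from 5.46 to 5.58 in vehicle and from 5.52 to 5.65 in treated livers at 90 d, so these groups overlapped. The part of these cells in the Bst2 values was not tested, and in whole tissue a change in the number of cells cannot be told apart from a change in RNA per cell.

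Xaf1, a pro-apoptotic partner of XIAP, ran from 6.49 over 6.98 to 8.23 in vehicle livers at 21 d and was 6.46, 8.50, 6.70, 6.77 and 6.81 in treated livers. Its range was 6.21 to 7.48 (median 6.96) in vehicle and 6.99 to 9.06 (median 7.35) in treated livers at 90 d. In both treated groups 1 liver stood far above the rest, and the groups overlapped at both durations. The differences were -0.11 ± 0.37 (SE) at 21 d and 0.69 ± 0.36 at 90 d, with an adjusted p of 0.531 at 90 d (limma). Without treated replicate 3 of 90 d, the highest liver, the 90 d difference was 0.39. Without vehicle replicate 1 of 21 d the 21 d difference was 0.10, and without treated replicate 2 it was -0.47. The other Xaf1 probe set, with a mean of 4.41 below the array medians, gave 0.05 at 21 d and 0.19 at 90 d. The other antiviral genes varied less. Rsad2 (viperin), which makes a chain terminator of viral RNA synthesis, differed by -0.33 ± 0.15 at 21 d and 0.08 ± 0.15 at 90 d. Mx1 and Mx2, dynamin-like GTPases, differed by -0.02 ± 0.10 and 0.17 ± 0.15 at 21 d, and by -0.16 ± 0.10 and 0.25 ± 0.14 at 90 d. The mean of Mx1 over all arrays was 4.05, below the array medians, so its small spread and differences may reflect a low signal. Eif2ak2 (PKR), the kinase that stops translation on double-stranded RNA, differed by 0.05 ± 0.11 and 0.02 ± 0.10. Its other probe sets gave -0.30 and -0.15 at 21 d and -0.16 and 0.01 at 90 d. Ifi35 differed by 0.34 ± 0.15 at 21 d, with an adjusted p of 0.257 (limma), and by 0.11 ± 0.14 at 90 d. The other Ifi35 probe sets gave 0.06 and 0.21 at 21 d and 0.24 and 0.25 at 90 d.

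The guanylate-binding proteins, GTPases that attack pathogen vacuoles, showed the widest spread between animals. Gbp3 ran from 6.46 over 7.15 to 9.47 in vehicle livers at 21 d and was 6.38, 9.36, 6.36, 7.33 and 6.47 in treated livers. At 90 d it ran from 6.48 over 6.91 to 8.35 in vehicle and from 6.29 over 7.54 to 9.60 in treated livers. A single liver stood more than 1 log2 unit above the next in the vehicle and treated groups at 21 d and in the treated group at 90 d, and the groups overlapped almost completely. The differences were -0.31 ± 0.62 (SE) at 21 d and 0.46 ± 0.59 at 90 d. With single arrays left out in turn they ran from -0.85 to 0.09 and from 0.06 to 0.72. Gbp2 ran from 7.02 over 7.30 to 9.59 in vehicle livers at 21 d and was 6.76, 8.91, 6.47, 7.25 and 6.69 in treated livers. At 90 d its range was 6.63 to 7.82 (median 7.26) in vehicle and 6.81 to 9.79 (median 7.24) in treated livers. The same 3 livers were the highest of their groups, and at 90 d the medians of vehicle and treated livers were nearly equal. The Gbp2 differences of -0.52 ± 0.51 and 0.41 ± 0.49 had adjusted p of 0.686 and 0.825 (limma), and without treated replicate 3 of 90 d the 90 d difference was -0.01. At 21 d the difference was -0.15 without vehicle replicate 1 and -0.95 without treated replicate 2.

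Psmb8 and Psmb9 had the largest mean differences of the 28 genes at 90 d, within a wide spread. Psmb8, a catalytic subunit of the immunoproteasome, ran from 8.95 over 9.52 to 11.35 in vehicle livers at 21 d and was 9.01, 11.53, 9.34, 9.18 and 9.09 in treated livers. After 90 d it ran from 8.85 over 9.23 to 10.13 in vehicle and from 9.45 over 10.09 to 11.53 in treated livers. At 21 d 4 of 5 treated livers lay at or below the vehicle median and the fifth above every vehicle liver, while at 90 d all treated livers lay above the vehicle median. The difference at 90 d was 0.85 ± 0.44 (SE), a 1.81-fold higher level, with a 95% interval of -0.05 to 1.75 and an adjusted p of 0.522 (limma), and at 21 d it was -0.13 ± 0.46. Without treated replicate 3 of 90 d the 90 d difference was 0.60, and the 21 d difference was -0.61 without treated replicate 2 and 0.19 without vehicle replicate 1 of 21 d. The other Psmb8 probe set, with a mean of 4.76 below the array medians, gave -0.10 at 21 d and 0.28 at 90 d.

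Psmb9, another catalytic subunit of the immunoproteasome, ran from 8.62 over 9.11 to 11.51 in vehicle livers at 21 d, and was 8.91, 11.08, 9.19, 8.97 and 8.81 in treated livers. Its 90 d values ran from 8.53 over 9.04 to 9.79 in vehicle and from 9.26 over 9.73 to 11.30 in treated livers. The livers at the top were those of Psmb8, and the groups overlapped at both durations. The differences were -0.09 ± 0.47 (SE) and 0.75 ± 0.45, and without treated replicate 3 of 90 d the latter was 0.47. The 21 d difference was 0.31 without vehicle replicate 1 and -0.51 without treated replicate 2. Tap1, a subunit of the peptide transporter, had vehicle means of 7.49 ± 0.80 (SD, n = 6) and 7.23 ± 0.34 (n = 6) and treated means of 7.43 ± 0.67 (n = 5) and 7.78 ± 0.70 (n = 6) at 21 d and 90 d. Its differences were -0.07 ± 0.36 (SE) and 0.55 ± 0.34. The other Tap1 probe sets gave 0.05, 0.07 and 0.06 at 21 d and 0.06, -0.04 and -0.13 at 90 d. Their means of 3.32, 5.23 and 3.96 lay below the array medians.

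Cxcl10, the chemokine that draws T cells and natural killer cells through CXCR3, ran from 5.79 over 6.52 to 9.27 in vehicle livers at 21 d and was 6.23, 7.18, 6.10, 6.49 and 5.82 in treated livers. The 90 d values ran from 5.70 over 6.57 to 6.96 in vehicle and from 5.99 over 6.34 to 8.45 in treated livers. The highest liver of the whole set was vehicle replicate 1 at 21 d, 2.39 above its group mean, and the groups overlapped at both durations. The differences were -0.51 ± 0.49 (SE) and 0.33 ± 0.47. They were close to 0 without the highest liver, at -0.03 without vehicle replicate 1 of 21 d and -0.01 without treated replicate 3 of 90 d.

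**Figure D3:**
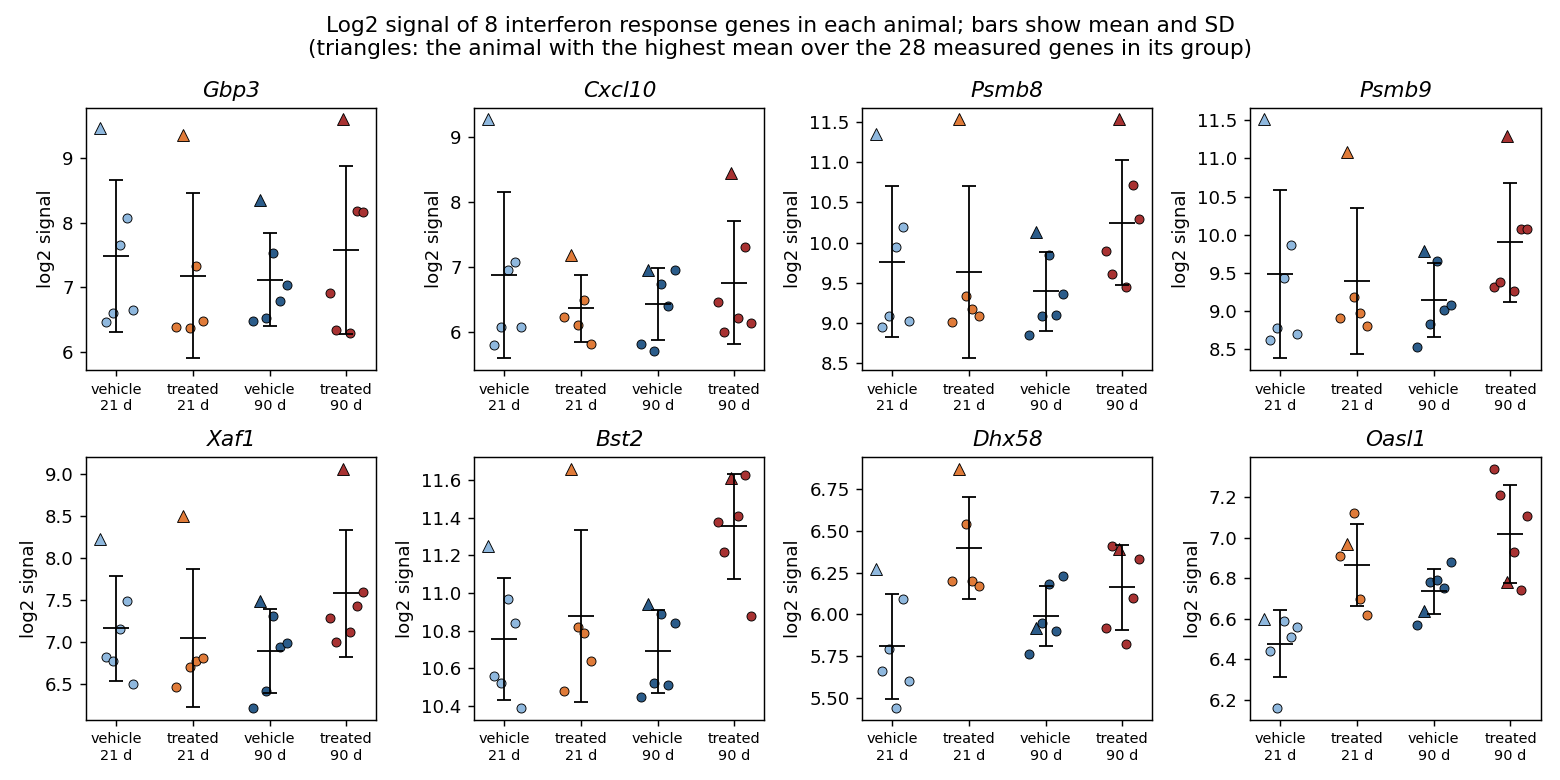
Log2 signal of 8 interferon response genes in each liver, by group, with bars for the mean and SD (6, 5, 6 and 6 livers); triangles mark the liver with the highest mean over the 28 genes in its group. For Gbp3, Psmb8, Psmb9 and Xaf1 the triangles lie at the top of their groups, while for Oasl1 the treated livers at 21 d (6.62 to 7.12) lie above the vehicle livers (6.16 to 6.60).

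None of the 28 genes passed in either comparison of the durations. Vehicle livers at 90 d against 21 d gave no call among the 28 (0.011% of all represented genes passed), with fold changes below 0 for 22 genes and a median of -0.11 beside -0.01 over all genes. The unadjusted p was under 0.05 for 2 of 28 (7.14%, against 6.43% of all represented genes), Oasl1 with a higher and Rsad2 with a lower level at 90 d. Treated livers at 90 d against 21 d gave no call among the 28 either (0.0934% of all represented genes passed), with 21 fold changes above 0 and a median of 0.16 beside 0.02. Here too the unadjusted p was under 0.05 for 2 of 28 (7.14%, against 13.3%), Bst2 with a difference of 0.48 and Ifih1 with 0.40. Without treated replicate 2 of 21 d, 2 genes passed in this comparison, Bst2 (0.67, adjusted p = 0.0229, limma) and Ifih1. In that fit 1644 of all 45037 probe sets passed in this comparison, instead of 34 with all arrays, so the rise was not particular to these genes. The comparisons of time and of treatment share groups, so they are not independent of each other.

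The spread between livers of the same group was wide for most of these genes. The residual SD over the 4 groups had a median of 0.33 on the log2 scale beside 0.15 over all genes, and 20 of 28 lay above the 90th percentile of all genes (0.26). Of these, Gbp3 (1.14), Gbp2 (0.93), Cxcl10 (0.90), Psmb9 (0.86) and Psmb8 (0.83) lay above the 99th percentile (0.68). None of the 5 oligoadenylate synthetase family genes lay above the 90th percentile. The share of variance between the groups had a median of 13.1% over the 28 genes, from 0.75% for Ifit1 to 58.8% for Oasl1, beside 17.2% over all genes. This share is not adjusted for the number of groups, and the means of 4 groups take up some variance by chance alone. Deviations from the group mean went together across genes, with a median Pearson r of 0.55 over 378 gene pairs (-0.54 to 0.98) and of 0.74 over the 190 pairs of the 20 more variable genes. These correlations are descriptions over the same 23 arrays, whose genes share each array's RNA. The 20 genes were picked by their spread in these arrays, and no value over pairs of all genes is given beside them.

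**Figure D4:**
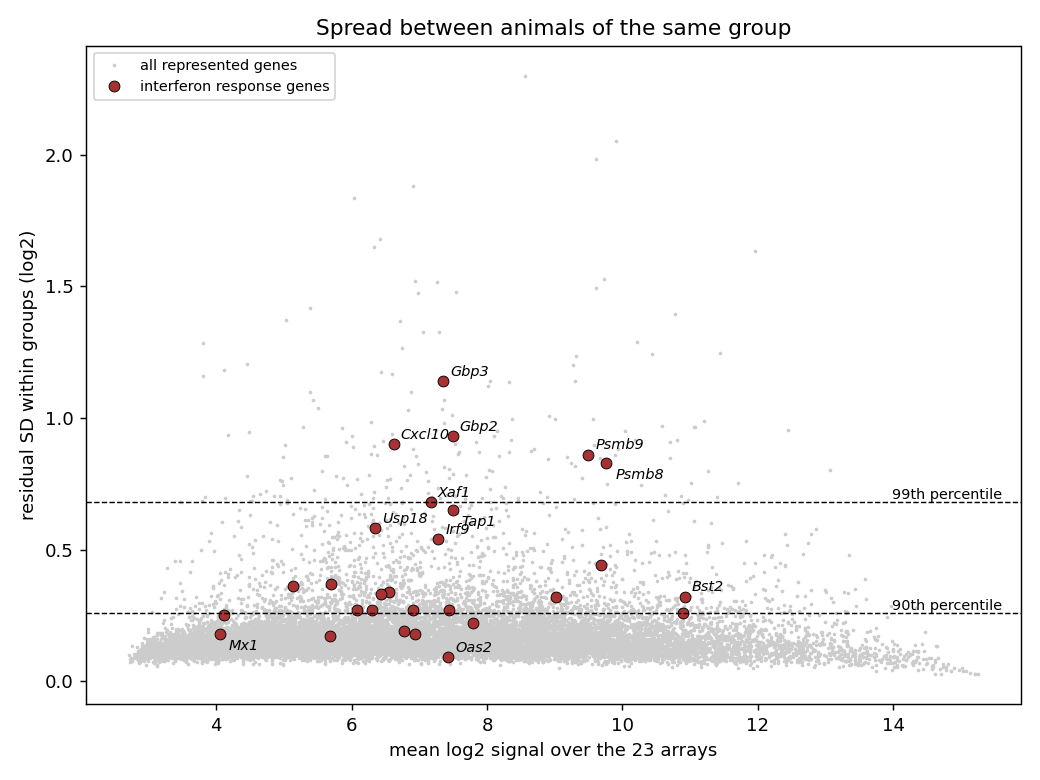
Residual SD within groups against mean log2 signal, for all represented genes (grey) and the 28 interferon response genes (coloured), with lines at the 90th (0.26) and 99th (0.68) percentiles of all genes. Gbp3, Gbp2, Cxcl10, Psmb9 and Psmb8 lie above the upper line, and Oas2 (0.09) is the lowest of the 28.

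The same few livers were at the top of their groups for many of these genes. Vehicle replicate 1 at 21 d was the highest of its group for 23 of the 28 genes, treated replicate 2 at 21 d for 20, treated replicate 3 at 90 d for 18 and vehicle replicate 2 at 90 d for 15. Of all represented genes these livers were the highest of their groups for 19.1%, 30%, 16.7% and 16.3%, in the same order. For 14 of 28 genes (50%) the livers at the top of the vehicle and treated groups at 21 d and the treated group at 90 d were all 3 of these, against 3.19% of all represented genes. These livers were picked after their values were seen, so this is a description with no test. The 14 were Irf7, Irf9, Ifih1, Usp18, Ifit2, Ifit3, Oasl2, Xaf1, Gbp2, Gbp3, Psmb8, Psmb9, Tap1 and Cxcl10. The size differed between genes. Cxcl10 stood 2.39 above its group mean in the vehicle liver and 0.82 in the treated liver of 21 d, Psmb8 stood 1.59 and 1.90 above, and Oas2, Oas3, Oasl1, Mx1, Mx2, Rsad2 and Eif2ak2 stayed within 0.27 of the mean in both. At the other end, vehicle replicate 1 of 90 d was the lowest of its group for 19 of the 28 genes.

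The group means over the 28 genes, these livers included, were 7.26 ± 0.42 (SD, n = 6) for vehicle and 7.21 ± 0.36 (n = 5) for treated livers at 21 d, and 7.11 ± 0.24 (n = 6) for vehicle and 7.39 ± 0.39 (n = 6) for treated livers at 90 d. The medians were 7.15, 7.09, 7.10 and 7.31.

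The means of Kupffer cell and macrophage markers and of acute phase genes were highest in the same livers. The mean of 15 Kupffer cell and macrophage markers was 9.86 in vehicle replicate 1 at 21 d (other vehicle livers 8.08 to 9.20), 10.27 in treated replicate 2 at 21 d (others 7.78 to 8.12), 9.39 in treated replicate 3 at 90 d (others 7.99 to 9.20) and 9.12 in vehicle replicate 2 at 90 d (others 7.89 to 8.53). Of the 15, 9 were highest in all 3 of the livers above, among them the scavenger receptor Marco and Adgre1 (F4/80). Clec4f, Vsig4, Csf1r, Lyz2, Cd163 and Ccr2 were not highest in all 3. Marco reached 11.12 and 11.73 in the vehicle and treated liver of 21 d, above 8.94 and 7.31 in the next livers. The mean of 12 acute phase genes, made by hepatocytes under inflammatory cytokines, was 13.32, 14.10, 13.58 and 13.13 in the same 4 livers, the highest of its group in each. Of these genes, 6 of 12 were highest in all 3. Treated replicate 6 of 90 d was next in its group for acute phase genes, at 13.18, with an interferon response gene mean of 7.45. T and natural killer cell markers had a mean between 5.31 and 5.81 in all livers, with 3 of 11 highest in all 3. At 21 d their mean was 5.81 in vehicle replicate 1 (others 5.43 to 5.61) and 5.78 in treated replicate 2 (others 5.31 to 5.49). At 90 d it was 5.55 in vehicle replicate 2 (others 5.42 to 5.54), while treated replicate 3 (5.63) was below treated replicate 5 (5.79). The mean of 8 neutrophil markers was 6.55 in vehicle replicate 1 (others 5.60 to 6.35) and 7.51 in treated replicate 2 (others 5.64 to 5.91) at 21 d, and 6.55 in vehicle replicate 2 (others 5.68 to 6.03) at 90 d, the highest of their groups, whereas treated replicate 3 at 90 d (6.65) was below treated replicate 6 (6.86). Of the 8, 1 was highest in all 3 livers, and none of 7 hepatocyte markers, 6 B cell markers, 7 dendritic cell markers or 8 endothelial markers was. The endothelial mean topped its group in both 21 d livers (8.70 and 8.60) and in vehicle replicate 2 of 90 d (8.63). So did the dendritic cell mean, Bst2 included (6.42, 6.56 and 6.29), while the B cell mean did so at 21 d alone (6.31 and 6.13). The summed linear signal of the Kupffer cell list ran from 7543 to 29382 in vehicle and from 5974 to 39679 in treated livers at 21 d, and from 6932 to 18803 and 6848 to 19839 at 90 d. The part of these cells in the interferon values was not tested. The Gapdh 3' minus 5' difference at 21 d was 0.33 in vehicle replicate 1 (others 0.09 to 0.49) and 0.14 in treated replicate 2 (others 1.02 to 1.45). Treated replicate 2 was thus the only treated liver of 21 d within the range of the vehicle livers. At 90 d the difference was 0.21 in treated replicate 3 (others 0.14 to 1.24) and 0.48 in vehicle replicate 2 (others 0.36 to 0.74). The part of RNA quality in the values of these livers was not tested.

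**Figure D5:**
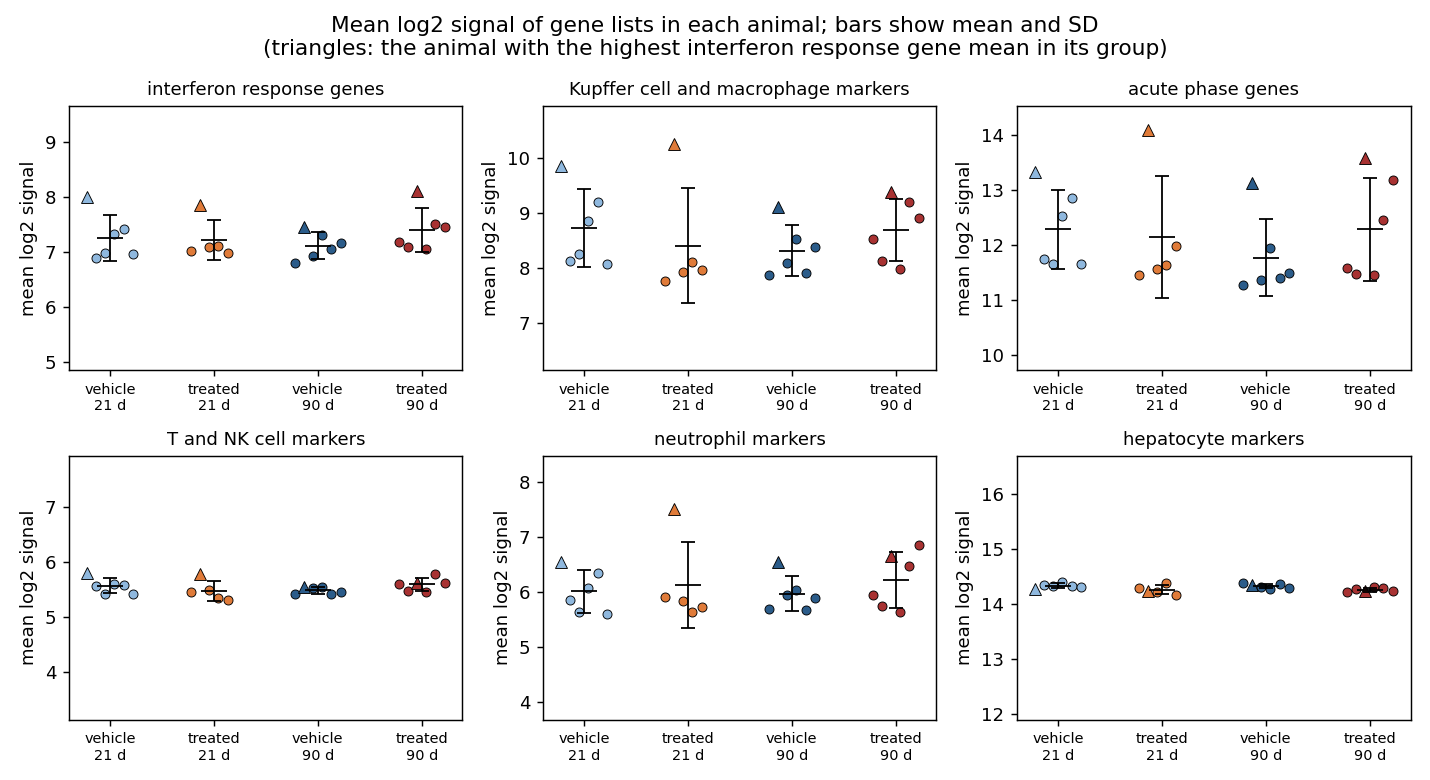
Mean log2 signal of gene lists in each liver, by group, with bars for the mean and SD (6, 5, 6 and 6 livers); triangles mark the liver with the highest mean over the 28 interferon response genes in its group. The marked livers are also at the top of their groups for Kupffer cell markers (9.86, 10.27, 9.12 and 9.39), while hepatocyte markers stay between 14.17 and 14.40.

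Beyond the 28 genes, 91 of 105 other genes of interferon production, signalling and response could be measured. At 21 d 1 of the 91 passed (1.17% of all represented genes did), Irf3, the factor that starts interferon beta transcription, and at 90 d none did (0.748% of all did). Those with an unadjusted p under 0.05 numbered 12 of 91 at 21 d (13.2%, against 16.6% of all represented genes) and 9 at 90 d (9.89%, against 12.1%). Groups did not overlap for 1 of the 91 at 21 d (2.81% of all represented genes) and for 2 at 90 d (2.2%, against 1.35%), Psme1 and Ddx58, which are given further on. Irf3 ran from 9.99 over 10.04 to 10.11 in vehicle livers at 21 d and was 10.45, 10.19, 10.50, 10.53 and 10.39 in treated livers, so the groups did not overlap. The difference was 0.36 ± 0.08 (SE) with an adjusted p of 0.0322 (limma), and 3 of its 4 probe sets had the same sign. The call ended in 8 of 23 fits that each left out 1 array, with a highest adjusted p of 0.0897, and with the Gapdh difference as a covariate the Irf3 difference was 0.16 with an adjusted p of 0.579.

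The interferons themselves gave low signals with no call. Ifnb1 had group means of 5.53 ± 0.16 (SD, n = 6) in vehicle and 5.41 ± 0.26 (n = 5) in treated livers at 21 d, and 5.48 ± 0.08 and 5.56 ± 0.15 (n = 6 each) at 90 d. Ifng lay between 3.32 and 3.77 in all 23 livers, and was 3.44 in vehicle replicate 1 and 3.75 in treated replicate 2 of 21 d and 3.42 in treated replicate 3 of 90 d. Ifna2 differed by -0.27 ± 0.10 (SE) at 21 d, with an adjusted p of 0.176 (limma), and by -0.16 ± 0.09 at 90 d, and Ifna4 by -0.19 ± 0.09 and -0.15 ± 0.09. Whether these signals lie above background could not be read from the deposited values. Among the 8 inhibitors, none passed. Socs1 differed by 0.03 ± 0.10 and 0.06 ± 0.09, and Socs3, which is also induced by interleukin 6, by 0.40 ± 0.48 and 0.86 ± 0.46.

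Target genes of the wider pathway were often highest in these livers too. Of the 91 genes, 37 were highest in the same 3 livers (40.7%, against 3.19% of all represented genes), unevenly over the lists. All 7 interferon-inducible GTPases were, as were 6 of 9 MHC class I pathway genes and 17 of 37 further induced genes. So were 3 of 7 signal transducers and IRFs, 3 of 10 nucleic acid sensors and adaptors, and 1 of 9 receptors and kinases. None of the 4 interferons or the 8 inhibitors was. Igtp, a GTPase induced by interferon gamma, was 12.88 in vehicle replicate 1 (next liver 11.02) and 11.40 in treated replicate 2 (next 10.16) at 21 d, and 12.97 in treated replicate 3 at 90 d (next 11.20). All 7 GTPases had fold changes below 0 at 21 d (median -0.48) and 6 of 7 above 0 at 90 d (median 0.15), with none passing. Of the 9 MHC class I genes, 3 had fold changes above 0 at 21 d (median -0.07) and all 9 at 90 d (median 0.26), with none passing. Psme1, a proteasome activator subunit in this list, did not overlap at 90 d, with 11.02 to 11.38 in vehicle and 11.41 to 12.02 in treated livers, a difference of 0.40 ± 0.14 (SE) with an adjusted p of 0.279 (limma). The RNA sensor Ddx58 (RIG-I) did not overlap at 90 d either, with 7.89 to 8.12 in vehicle and 8.13 to 8.33 in treated livers, a difference of 0.20 ± 0.08 with an adjusted p of 0.405.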

How the data were processed

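Liver RNA of 23 mice was measured on Affymetrix Mouse Genome 430 2.0 arrays. The authors deposited log2 values, made with Partek and RMA per the submitters' processing notes, with no version named there. No label states the log base, and log2 was inferred from the range (2.23 to 15.41). RMA brings arrays to a common distribution, so a shift of all genes would not show. Of 45101 probe sets, 64 controls were left out of the tests. The platform annotation paired 34945 of the other 45037 with 1 gene, 932 with several and 9160 with none.

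Means of 4 groups were fitted with lmFit and eBayes (limma 3.58.1, R 4.3.3), with 19 residual degrees of freedom, 5 contrasts and Benjamini-Hochberg adjustment over 45037 probe sets; 0.05 was the threshold. The fit was tested on simulated data. A fold change is the difference between group means of log2 values, with the moderated SE, and the number of arrays limits their precision. Values by animal are given for the genes whose groups did not overlap, the 4 with the largest change at each duration, the 4 with the largest residual SD, and Stat2, Irf7, Irf9, Usp18 and Cxcl10. The members and gene lists were chosen with earlier results of these data known. Promoter windows are from RefSeq (GRCm38.p6). The groups share replicate numbers in the labels. Deviations of same-numbered vehicle and treated animals correlated at -0.14 to -0.36, and no treated animal correlated best with the vehicle animal of its own number. Whether the numbers stand for a shared block was not settled by this, and the main fit did not use them. With a replicate block 91 probe sets passed at 21 d instead of 431, and 148 instead of 226 at 90 d. The labels give no hybridisation or extraction batch.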

Additional observations from a re-analysis of the deposited data

Results flagged for a closer look

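In 14 of 112 sets of 1 gene in 1 group, the highest or lowest liver stood apart from the rest by Dixon's criterion, where chance gives about 1 in 20 groups. The share was 12.5%, against 7.04% over all represented genes, and 25% against 8.54% in treated livers at 21 d. The genes share their livers, so these are not independent. The liver that recurred was treated replicate 2 of 21 d, for Ifih1 (9.75, others 8.65 to 8.86), Usp18 (7.49, others 6.09 to 6.37), Oas1a (8.39, others 7.59 to 7.79), Bst2 (11.66, others 10.48 to 10.82), Xaf1 (8.50, others 6.46 to 6.81), Psmb8 (11.53, others 9.01 to 9.34) and Psmb9 (11.08, others 8.81 to 9.19). Its mean over the 28 interferon response genes stood apart too, at 7.85 against 6.98 to 7.11.

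Vehicle replicate 1 of 21 d stood apart for the peptide transporter gene Tap1 (9.0, others 6.80 to 7.60) and for Cxcl10 (9.27, others 5.79 to 7.08). At 90 d vehicle replicate 2 stood apart for Irf1 (10.14, others 9.18 to 9.48) and Mx2 (7.37, others 6.68 to 6.81), and treated replicate 3 for Xaf1 (9.06, others 6.99 to 7.59). A liver stood apart at the low end for 2 genes: treated replicate 4 of 90 d for Ifih1 (9.03, others 9.39 to 9.54) and vehicle replicate 3 of 21 d for Oasl1 (6.16, others 6.44 to 6.60).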

How the results depend on the processing

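Of 2197 alternative values of the 13 genes described by animal, 14 passed and 94 had the other sign with no call. At 21 d, where none of the 28 genes passed, the count was 1 with array weights (Oasl1), 2 among probe sets with a mean of at least 6 (Dhx58 and Oasl1), 1 with the acute phase mean as a covariate (Dhx58), and 0 to 1 without single arrays. At 90 d it was 1 (Bst2) with only the 2 groups compared, with array weights, with the Gapdh covariate and without the 5 arrays whose Gapdh difference exceeded 0.9, and 0 to 1 without single arrays; for treated livers at 90 d against 21 d it was 0 to 2. The median fold change at 21 d was 0.31 with the Gapdh covariate and 0.46 without those 5 arrays, which left 1 treated liver at 21 d, replicate 2, the one with the highest interferon response gene mean (7.85), assumed to vary like the other groups. Without them the median was -0.20 for the difference of effects and -0.28 for treated livers at 90 d against 21 d. Other pathway genes passing at 21 d, 1 here, numbered 0 on the mean of all probe sets, with the Gapdh covariate and without those 5 arrays, 2 with the acute phase covariate (Irf3 and Tlr3) and 0 to 4 without single arrays. At 90 d there was 1 with the Gapdh covariate (Psme1), 1 without the 5 arrays (Mavs) and 0 to 1 without single arrays, which gave 0 to 1 for the difference of effects and 0 to 3 for treated livers at 90 d against 21 d. The causes were not tested. With a replicate block the members passing stayed at 0 in each comparison and the other pathway genes passing at 21 d numbered 0. Under the other alternatives tried, quantile normalization and median centring among them, each comparison's median moved by less than the animal SD (0.36), which still took the 90 d median from 0.24 to 0.03 with the acute phase covariate and the difference of effects from 0.33 to between 0.02 (Gapdh covariate) and 0.45 (without treated replicate 2 of 21 d). The depth of signal over background could not be assessed.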
